A study of Mus musculus with 26 samples.

Results

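Pi16 encodes peptidase inhibitor 16, a CAP-superfamily protein, and Dpp4 encodes CD26, a dipeptidyl peptidase of the cell surface. The cells described here are skin cells of 2 single-cell libraries with at least 3 UMIs (counted molecules) of Pi16 and Dpp4 together, at least 1 UMI of the collagen gene Col1a1 and 0 UMIs of the leukocyte gene Ptprc. Of 33086 barcodes in all, 18374 in tube 1 and 4779 in tube 2 had at least 500 genes and at most 10% mitochondrial UMIs. Of these, 5419 passed the gate, 4039 in tube 1 and 1380 in tube 2. They were compared within each tube with the other cells that had Col1a1 and no Ptprc, 14133 in tube 1 and 3348 in tube 2. The members were chosen by their UMI counts of Pi16, Dpp4, Col1a1 and Ptprc. Because the gate read the counts of these 4 genes, the genes are given as a description and were left out of every test.

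Both tubes hold fibroblasts sorted from Prrx-Cre mice, in which Cre follows Prrx1, a homeobox gene of limb bud and ventral mesenchyme. The sample labels give postnatal ventral skin for them. The series' design names 8 pooled samples, of Prrx1-positive (PPF) and Prrx1-negative (PNF) fibroblasts, of caudal and ventral skin, wounded and unwounded, marked with hashtag antibodies and split over 2 tubes. No source used here says which hashtag is which sample, and 6 hashtags carried signal where 8 samples are named, so no lineage, site or wound was compared in single cells. Separate bulk libraries, 24 in all, hold PPF and PNF fibroblasts sorted from ventral skin at E16.5, E18.5, P1 and P30. The age beyond "postnatal", the sort gate and the number of animals are not given in the sources used here, so p-values measure the spread between these libraries, which may be technical.

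Fibroblasts with Pi16 are known from many mouse tissues as a common, or universal, state found around vessels and in fascia, and are held to be able to give rise to more specialized fibroblasts. In skin, DPP4 marks fibroblast lineages that lay down scar matrix after wounding, and it is also a marker of early adipose progenitors. CD55, a complement regulator, and Sema3c, a guidance cue, are among the genes that usually accompany Pi16.

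The gate sums both genes, but the counts that filled it were nearly all of Pi16 (ENSMUSG00000024011, mm10 chromosome 17, 29317680 to 29330593). Pi16 UMIs alone reached 3 in 92.6% of the members of tube 1 and in 90.6% of those of tube 2. Dpp4 (ENSMUSG00000035000, chromosome 2, 62330073 to 62412231) had a UMI in 21.3% and 27.2% of members, against 9.74% and 14.5% of the other cells. Members with UMIs of both genes made up 20.9% in tube 1 and 26.1% in tube 2, and 16 and 15 members had Dpp4 without Pi16. To compare cells of unequal depth, each cell was thinned at random to 1400 UMIs, which left out 149 and 5 members and 1604 and 113 other cells as too shallow. At that depth the share of cells with a Dpp4 UMI in tube 1 was 6.33% with 0 Pi16 UMIs, 6.42% with 1, 6.16% with 2, 6.15% with 3 to 4 and 7.26% with 5 or more. In tube 2 the shares were 7.21%, 7.13%, 4.58%, 4.67% and 6.67% in the same order. These shares describe values that the gate used and carry no test. Since the counts that filled the gate were mostly of Pi16, the cells are called Pi16-gated cells below.

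Pi16-gated cells made up 22.2% (95% Clopper-Pearson interval 21.6 to 22.8) of Col1a1-positive cells in tube 1 and 29.2% (27.9 to 30.5) in tube 2. These intervals cover counting error only. The gate has no natural edge, since 1130 and 335 cells stood just inside it with exactly 3 UMIs and 1840 and 666 cells just outside it with 2, while 637 and 449 cells had 10 or more. The highest Pi16 count in 1 cell was 69 in tube 1 and 123 in tube 2. Depth differed between the classes. Gated cells had a median of 3341 UMIs against 2577 in the other cells of tube 1, and 6370 against 3770.5 in tube 2. When the gate was set on thinned cells, the shares were 10.4% and 8.65%, and tube 2 was no longer the higher. No order between the tubes is therefore read from the shares.

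**Figure D1:**
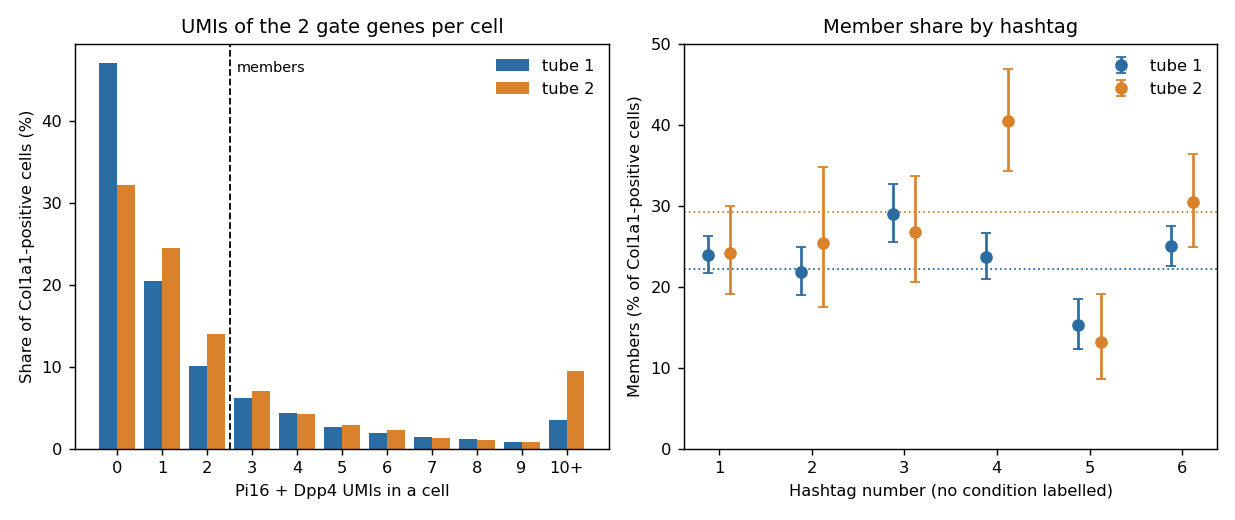
Left, share of Col1a1-positive cells (%) by the number of Pi16 and Dpp4 UMIs in a cell, with bars for tube 1 and tube 2 and a dashed line at the gate of 3. Right, gated cells as a share (%) of the cells carrying each hashtag, with 95% Clopper-Pearson intervals and dotted lines at the share of the whole tube. The counts fall off without a gap at the gate, and hashtag 5 has the lowest share in both tubes.

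A single dominant hashtag could be given to 30.04% of the compared cells in tube 1 and 26.1% in tube 2, and which sample a hashtag marks is unknown here. In tube 1 the gated share was 23.9%, 21.8%, 29.0%, 23.7%, 15.2% and 25.02% for hashtags 1 to 6. In tube 2 it was 24.2%, 25.5%, 26.7%, 40.5%, 13.2% and 30.5%. Hashtag 5 had the lowest share in both tubes and hashtag 4 the highest in tube 2. These are descriptions of 1 hashtag per tube, with no test. Median depth per hashtag ran from 2568 to 3434.5 UMIs in tube 1 and from 3436 to 6037 in tube 2, and its part in these shares was not tested.

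Pi16 UMIs were also found in barcodes rich in markers of other cell types. Barcodes with at least 10 UMIs of leukocyte markers carried 308 Pi16 UMIs per 1000000 UMIs in tube 1 (41 barcodes, median 1729 UMIs) and 607 in tube 2 (21 barcodes, median 3158 UMIs). Of these barcodes 12.2% and 9.52% reached 3 UMIs of the gate genes. Barcodes with at least 5 UMIs of pericyte markers numbered 53 in tube 1 (median 2935 UMIs) and 65 in tube 2 (median 7683 UMIs). They carried 213 and 1352 Pi16 UMIs per 1000000, and 9.43% and 41.5% reached 3 UMIs of the gate genes. Of these barcodes 5 and 26 were themselves gated cells. Gated cells carried 1673 and 1334 Pi16 UMIs per 1000000 by construction, and the other cells 145 and 121. In tube 2 the barcodes with pericyte markers thus carried as much Pi16 as the gated cells, and in tube 1 they carried less. Those barcodes also carried 10986 and 24256 Col1a1 UMIs per 1000000, against 22219 and 26013 in the other cells. The pericyte markers include the channel gene Kcnj8, which fibroblasts also have. Whether these barcodes are pericytes, fibroblasts or mixtures was not tested. The part of free RNA in the gate was not tested. The tubes shared 42 barcodes, of which 32 passed the filters in both and 3 were gated in both.

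Several genes that mark fibroblasts were looked at first, and of these Col3a1, Dcn, Pdgfra and Prrx1 did not pass the test while Dpt and Thy1 were higher. Levels are UMIs per 1000000 UMIs of a class, summed over its cells in 1 tube, and each test is edgeR's quasi-likelihood test on these 4 sums with the tube as a block. The collagen gene Col3a1 stood at 26792 against 28530 in tube 1 and 16308 against 17616 in tube 2 (log2 fold -0.07 ± 0.10 SE, adjusted p = 0.841). The small proteoglycan gene Dcn stood at 15515 against 15775 and 15110 against 15480. Pdgfra, the receptor that marks fibroblasts, stood at 278 against 266 and 338 against 286 (log2 fold 0.18 ± 0.08, adjusted p = 0.277). Prrx1 (ENSMUSG00000026586, chromosome 1, 163245119 to 163313710), which names the lineages, stood at 670 against 592 and 580 against 548 (log2 fold 0.16 ± 0.08, adjusted p = 0.354).

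Of 13095 genes tested, 668 were called at an adjusted p under 0.05 (5.1%), of which 299 were higher in gated cells (2.28%) and 369 lower (2.82%). At an unadjusted p under 0.05 there were 1893. The call rests on pairing the classes within a tube, since a fit without the tube called 0 genes, with 364 at an unadjusted p under 0.05. With 2 tubes and 1 residual degree of freedom, the test borrows its spread from all genes. The hashtag sums give a second view, in which gated and other cells are compared within each of 6 hashtags of each tube, 12 pairs in all. On these the fit tested 9365 genes and called 431.

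Genes that usually accompany Pi16 in universal fibroblasts rose as far as they were called, apart from 1. Of 35 listed genes 16 were higher and 1 lower, against 2.28% and 2.82% of all tested genes, and the median log2 fold of the list was 0.33 against 0.00 for all genes. The counts of every list below are to be read against the same shares of all genes. Members and lists were chosen with earlier results of these data known, so the list counts are descriptions and not independent support. Cd55 (ENSMUSG00000026399, chromosome 1, 130439027 to 130462744) stood at 251 UMIs per 1000000 in gated and 172 in other cells of tube 1, and at 124 and 72.3 in tube 2. It was 1.60-fold higher (log2 fold 0.68 ± 0.08, adjusted p = 1.79e-05) and higher in 12 of 12 hashtag pairs. Sema3c stood at 158 against 112 and 85.5 against 53.2 (1.52-fold, adjusted p = 4.26e-05), again higher in 12 of 12. Both genes were thus higher in every hashtag pair, by 0.28 to 1.15 on the log2 scale for Cd55 and by 0.41 to 1.73 for Sema3c. The pairs cover only cells with 1 dominant hashtag, 30.04% and 26.1% of the compared cells. They are not known to be separate samples, since the same 6 hashtags were seen in both tubes.

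Gfpt2, which makes the hexosamine precursors of glycans, stood at 121 against 83.2 and 113 against 59.8 (1.67-fold, adjusted p = 1.45e-05, 10 of 12 pairs). Ackr3, a scavenging receptor of CXCL12, stood at 86.5 against 63.0 and 65.9 against 43.1 (1.47-fold, adjusted p = 9.67e-05, 11 of 12 pairs). The stem cell antigen gene Ly6a stood at 2341 against 1840 and 1682 against 1139 (1.40-fold, adjusted p = 0.00138, 12 of 12 pairs). Thy1, Cd34 and the receptor gene Axl were also higher, by 1.37-fold, 1.23-fold and 1.34-fold. The exception was the bone morphogenetic protein Bmp7, at 11 against 16.7 and 16.3 against 27.1 (log2 fold -0.64 ± 0.10, adjusted p = 0.000446). With UMIs of both gate genes required, the log2 fold of Bmp7 changed sign.

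Other genes of the list did not pass the test. Clec3b stood at 834 against 748 and 693 against 666 (adjusted p = 0.467), Pcolce2 at 459 against 438 and 537 against 535 (adjusted p = 0.812), and the fibronectin gene Fn1 at 2011 against 1900 and 1409 against 1245 (adjusted p = 0.404). These 3 genes had fold changes of 1.12 or less in the fit. With the gate set on thinned cells the universal list had 19 genes higher. A second list, of the Col15a1 and perivascular form of universal fibroblasts, had 2 of 13 genes higher and 1 lower, against 2.28% and 2.82% of all genes.

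The rise could be followed along the gate at equal depth. In thinned cells of tube 1 Ly6a stood at 1837 UMIs per 1000000 in cells with 0 gate UMIs, at 2029 with 1, 2232 with 2, 2402 with 3 to 4 and 2634 with 5 or more. In tube 2 Ly6a went from 1140 over 1268, 1278 and 1958 to 2314. Cd55 climbed from 166 to 304 in tube 1 and from 74.7 to 201 in tube 2 between the first and the last class, and Gfpt2 from 78.0 to 153 and from 61.8 to 163. These series are descriptions, with 10086 and 2717 cells in the first class and 630 and 171 in the last. The classes count gate UMIs after thinning, so those with 0, 1 and 2 also hold members of the gate that kept fewer than 3. At least 1 gate UMI was kept by 87.8% of 3890 thinned members in tube 1 and by 77.9% of 1375 in tube 2.

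**Figure D2:**
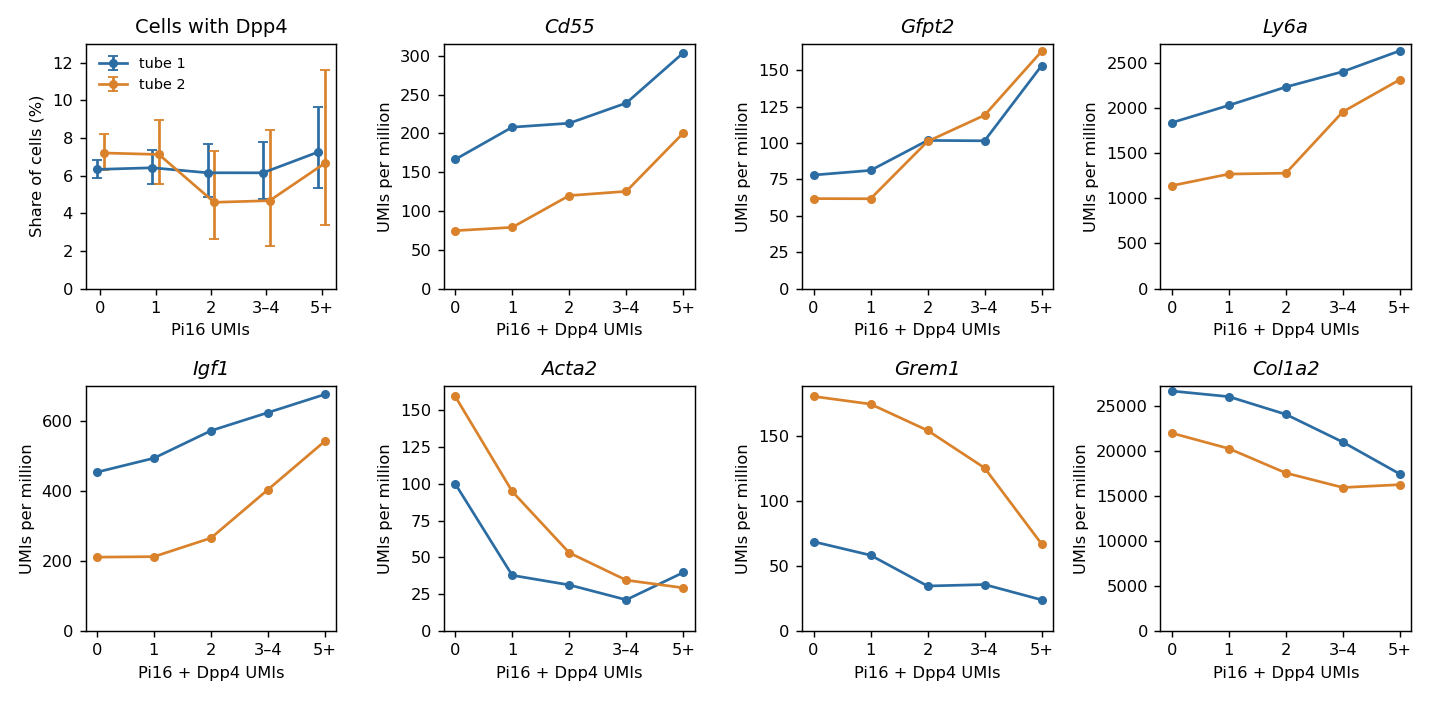
Levels in cells thinned to 1400 UMIs, for tube 1 and tube 2. The first panel plots the share of cells (%) with a Dpp4 UMI against the number of Pi16 UMIs, with 95% Clopper-Pearson intervals, and the other panels plot UMIs per 1000000 of 7 genes against the number of Pi16 and Dpp4 UMIs. The share with Dpp4 lies between 4.58% and 7.26%, Cd55, Gfpt2, Ly6a and Igf1 climb, and Grem1 and Col1a2 are lower in the last class than in the first, as is Acta2.

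The next genes are the 12 called genes with the largest rise among those with at least 100 UMIs per 1000000 in the higher class. Lbp (ENSMUSG00000016024, chromosome 2, 158306493 to 158332852), the lipopolysaccharide-binding protein, stood at 235 in gated and 105 in other cells of tube 1 and at 302 and 127 in tube 2. It was 2.35-fold higher (log2 fold 1.23 ± 0.08, adjusted p = 3.69e-09), and it was higher in 12 of 12 hashtag pairs, by 0.61 to 2.40 on the log2 scale. At equal depth 20.6% of gated cells had an Lbp UMI against 10.6% in tube 1, and 29.0% against 15.2% in tube 2 (unthinned 35.0% against 18.0% and 60.4% against 31.3%). Lbp had the largest fold of the 12 higher genes named by size, and most gated cells still had no Lbp UMI at that depth.

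Ifi27l2a, an interferon-induced gene, stood at 201 against 106 and 88.2 against 31.3 (2.28-fold, adjusted p = 4e-07, 11 of 12 pairs). The alarmin Il33 (ENSMUSG00000024810, chromosome 19, 29925114 to 29960718) stood at 159 against 102 and 163 against 78.2 (1.83-fold, adjusted p = 3.23e-06, 12 of 12 pairs). Masp1, a protease of the lectin pathway of complement, was 1.73-fold higher at 121 against 82.8 and 150 against 74.5. The iron-binding defence protein Lcn2 was 1.68-fold higher at 303 against 209 and 189 against 99.7, but in 8 of 12 pairs, and on the hashtag sums its adjusted p was 0.305. With the gate set on thinned cells the difference in Lcn2 was 0.10 on the log2 scale (adjusted p = 0.77).

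Cxcl14, a chemokine of skin, stood at 138 against 70.9 and 164 against 80.8 (2.03-fold, adjusted p = 3.74e-08). It was higher in 9 of 12 pairs, which ranged from -1.15 to 3.49 on the log2 scale, and on these its adjusted p was 0.0784. Coch, a secreted matrix protein of the inner ear, stood at 75.7 against 45.4 and 165 against 79.6 (1.90-fold), was higher in 7 of 12 pairs and had an adjusted p of 0.0787 there. For Coch 10 cells held 30.8% of the UMIs of the gated cells in tube 1 and 43.7% in tube 2. The hashtag pairs of Coch ranged from -3.27 to 2.04 on the log2 scale, and those of Cd55 from 0.28 to 1.15.

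Prg4 (ENSMUSG00000006014, chromosome 1, 150449412 to 150466165), the joint lubricant lubricin, stood at 166 against 80.6 and 147 against 78.1 (2.01-fold, adjusted p = 4.22e-08, 11 of 12 pairs). With the gate on thinned cells its log2 fold was 0.43 in place of 1.01 (adjusted p = 0.0298). Cilp, a cartilage intermediate layer protein, was 1.83-fold higher at 461 against 268 and 401 against 215, and in 12 of 12 pairs. Mgp, the matrix inhibitor of calcification, was 1.71-fold higher at 688 against 402 and 923 against 559. With UMIs of both gate genes required, the log2 folds of Cilp and Mgp turned negative. The adhesion molecule Chl1 and the proprotein convertase Pcsk5 were each 1.78-fold higher and higher in 12 of 12 pairs.

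**Figure D3:**
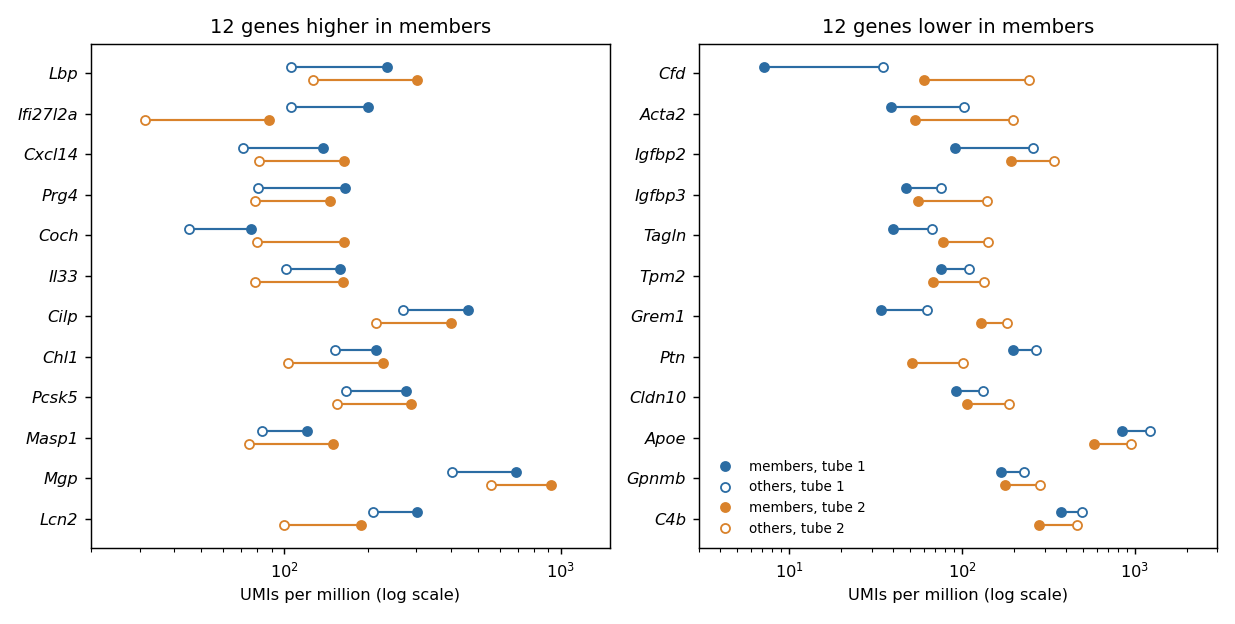
Levels in UMIs per 1000000 (log scale) of the 12 genes with the largest folds in each direction, filled points for gated cells and open points for other Col1a1-positive cells, joined by a line within each tube. In every gene both tubes point the same way, as the rule for naming required, and Cfd shows the widest gap, with 7.19 against 35.0 in tube 1.

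Hyaluronan and proteoglycan genes had 7 of 14 higher and 0 lower, against 2.28% and 2.82% of all genes, with a median log2 fold of 0.34. Besides Prg4 these were Ugdh, which makes the sugar nucleotide for hyaluronan, the hyaluronan synthase Has2, the large proteoglycan Vcan, Tnfaip6, Gpc3 and Cemip. Ugdh stood at 243 against 196 and 250 against 141 (1.51-fold, adjusted p = 0.000673, 11 of 12 pairs). Has2 stood at 23.8 against 19.1 and 20.3 against 13 (1.38-fold, adjusted p = 0.00873), and on the hashtag sums its adjusted p was 0.397. The count was 4 within a band of like depth, 4 on the hashtag sums and 2 with the gate on thinned cells, and 1 with DESeq2.

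Of 20 tested growth factor and receptor genes 6 were higher and 5 lower, against 2.28% and 2.82% of all genes. Igf1 (ENSMUSG00000020053, chromosome 10, 87858265 to 87937042) stood at 640 against 465 and 336 against 213 (1.5-fold, adjusted p = 0.000102, 12 of 12 pairs). The fibroblast growth factors Fgf2, Fgf7 and Fgf10 were 1.77-fold, 1.43-fold and 1.53-fold higher, and the hepatocyte growth factor Hgf 1.39-fold. On the hashtag sums Fgf2 had an adjusted p of 0.0657 and Fgf10 of 0.24. The related heparin-binding factors Mdk, at 31.4 against 49.3 and 27.5 against 50.1, and Ptn, at 197 against 267 and 51.1 against 101, were lower (adjusted p = 1.22e-05 and 0.000211).

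Among insulin-like growth factor binding proteins, Igfbp2 and Igfbp3 were lower. Igfbp2 stood at 91.3 against 256 in tube 1 and 192 against 341 in tube 2 (log2 fold -1.12 ± 0.11, adjusted p = 2.23e-06), and was lower in 11 of 12 pairs. Igfbp3 stood at 47.6 against 75.7 and 55.5 against 140 (log2 fold -0.96 ± 0.10, adjusted p = 5.35e-06). It was lower in 8 of 12 pairs only, and its adjusted p was 0.0830 on the hashtag sums and 0.283 with the gate on thinned cells. Igfbp6, a member of the universal list, stood at 624 against 509 and 518 against 491 and did not pass (adjusted p = 0.156).

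In WNT signalling 2 of 15 genes were higher and 2 lower (2.28% and 2.82% of all genes). Wnt5a (ENSMUSG00000021994, chromosome 14, 28504750 to 28527448), a ligand of non-canonical signalling, stood at 47.0 against 75.9 and 46.6 against 74.5 (log2 fold -0.66 ± 0.07, adjusted p = 1.2e-05). The ligand enhancer Rspo3 stood at 4.48 against 8.60 and 7.09 against 16.4, and the secreted antagonist Sfrp1 at 215 against 153 and 206 against 134 (1.5-fold, adjusted p = 5.74e-05). The ligand Wnt2, of the universal list, was low at 13.6 against 7.99 and 6.39 against 3.98, and its adjusted p was 0.0017 here and 0.159 on the hashtag sums. In the list of TGF-beta and BMP signalling 4 of 20 were higher, the receptor Tgfbr3 among them (1.36-fold), and 4 lower. The BMP antagonist Grem1 (ENSMUSG00000074934, chromosome 2, 113746164 to 113758646) was one of these, at 34.1 against 63.0 and 129 against 181 (adjusted p = 9.67e-05). In thinned cells Grem1 fell along the gate from 68.6 to 23.8 in tube 1 and from 180 to 66.8 in tube 2.

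In structural matrix none of 20 fibrillar matrix and collagen genes was higher and 3 were lower, the minor collagens Col5a3 (221 against 287 and 126 against 174, adjusted p = 0.00281) and Col12a1 and the proteoglycan Fmod. Col1a2, which pairs with the gate gene Col1a1, stood at 22128 against 25737 and 17820 against 22616 and did not pass (adjusted p = 0.178), although in thinned cells it went from 26720 to 17471 in tube 1 and from 22030 to 16287 in tube 2 along the gate. Of 18 elastic fibre and microfibril genes 4 were higher. These were Mfap5 (886 against 629 and 678 against 468, 1.46-fold, adjusted p = 0.000148), Mfap4, Loxl1 and Emilin2. Fbn2, the developmental fibrillin, was lower (44.5 against 62.1 and 54.9 against 75.8, adjusted p = 0.000711).

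Contractile genes were lower in gated cells. Of 14 myofibroblast and contractile genes 6 were lower and 0 higher (2.82% of all genes were lower), with a median log2 fold of -0.28. Acta2 (ENSMUSG00000035783, chromosome 19, 34241090 to 34255590), smooth muscle actin, stood at 39.0 against 103 in tube 1 and 53.1 against 196 in tube 2 (log2 fold -1.61 ± 0.09, adjusted p = 1.1e-09), and was lower in 12 of 12 pairs. Tagln stood at 39.7 against 67.0 and 77.8 against 142, and Tpm2 at 75.9 against 109 and 67.8 against 134. Myl9, Actg2 and Cnn1 were the other 3. Markers of pericytes and smooth muscle moved with them, 7 of 9 lower, and summed to 108 against 126 UMIs per 1000000 in tube 1 and 102 against 176 in tube 2 with no marker of the list at 0. Rgs5 stood at 2.38 against 19.8 and 1.80 against 23.9, while the channel gene Kcnj8, which fibroblasts also have, was higher at 50.8 against 36.7 and 51.9 against 41.9. Few cells held many of these UMIs. In other cells 10 cells held 46.5% and 78.2% of the Rgs5, 52.9% and 77.4% of the Myh11 and 16.0% and 43.4% of the Tagln UMIs. At equal depth the share of cells with Tagln was 3.80% against 4.13% and 7.05% against 7.60%. For Acta2 it was 3.01% against 4.78% in tube 1, where 10 other cells held 18.75% of the UMIs.

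Cells with 3 or more UMIs of markers of other cell types were then left out of both classes, 222 and 206 gated and 547 and 311 other cells. Such cells were the more frequent among gated cells, 5.50% against 3.87% in tube 1 and 14.9% against 9.29% in tube 2. The markers include Kcnj8, which was higher in gated cells, and gated cells were also deeper. The part of Kcnj8 and of depth in these shares was not tested. Without them Acta2 was still lower (log2 fold -0.90), as was Myl9 (-0.63), while Tagln (-0.20, adjusted p = 0.327) and Tpm2 (-0.27, adjusted p = 0.052) were no longer called, and 3 of the contractile genes were. The universal list had 18 genes higher without these cells, and Igfbp2 (-1.14), Grem1 (-0.64), Ptn (-0.60) and Wnt5a (-0.71) kept their calls.

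Fat-cell genes were lower as well. Cfd, the complement factor adipsin made by adipocytes, stood at 7.19 against 35.0 and 60.2 against 244 (log2 fold -2.07 ± 0.09, adjusted p = 1.73e-11). Of the Cfd UMIs of other cells, 86.9% in tube 1 and 81.7% in tube 2 lay in 10 cells. At equal depth the share of cells with Cfd was 0.925% against 0.846% in tube 1 and 4.36% against 4.48% in tube 2, and Cfd was lower in 9 of 12 pairs. Without cells with other types' markers the log2 fold of Cfd was -0.13 (adjusted p = 0.801) and that of Fabp4, a fatty acid carrier, -0.28 (adjusted p = 0.536). All 3 tested genes of the adipocyte list, Cfd, Cidec and Adipoq, were lower (summed level 8.01 against 39.1 and 67.9 against 282, with Lep at 0 in both classes). As for Cfd, 10 cells held most UMIs of the other cells, 91.1% and 81.2% for Cidec and 87.4% and 81.4% for Adipoq. Of the preadipocyte and adipogenic list 5 of 13 were lower and 0 higher.

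Markers of further cell types were low in both classes, and their counts stand against 2.82% of all genes lower. Leukocyte genes had 5 of 10 lower (30.5 against 47.0 and 28.3 against 56.2 summed) and keratinocyte genes 5 of 9 lower (59.9 against 71.9 and 59.1 against 81.2, with Krt1 at 0 in gated cells of tube 1). Of the Krt5, Krt14, Krt15 and Krt1 UMIs of other cells, 77.8% to 100% lay in 10 cells of a tube. Of 5 tested endothelial genes 0 were called, with summed levels of 19.4 against 13.7 and 10.6 against 17.4 and with Cldn5 and Lyve1 at 0 in gated cells of both tubes. Cell cycle genes had 0 of 16 called, Stmn1 coming nearest at 49.8 against 66.1 and 34.1 against 36.1 (adjusted p = 0.128). Genes of dissociation and immediate early response had 1 of 17 called, Nr4a1, higher at 87.0 against 75.3 and 110 against 66.9.

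**Figure D4:**
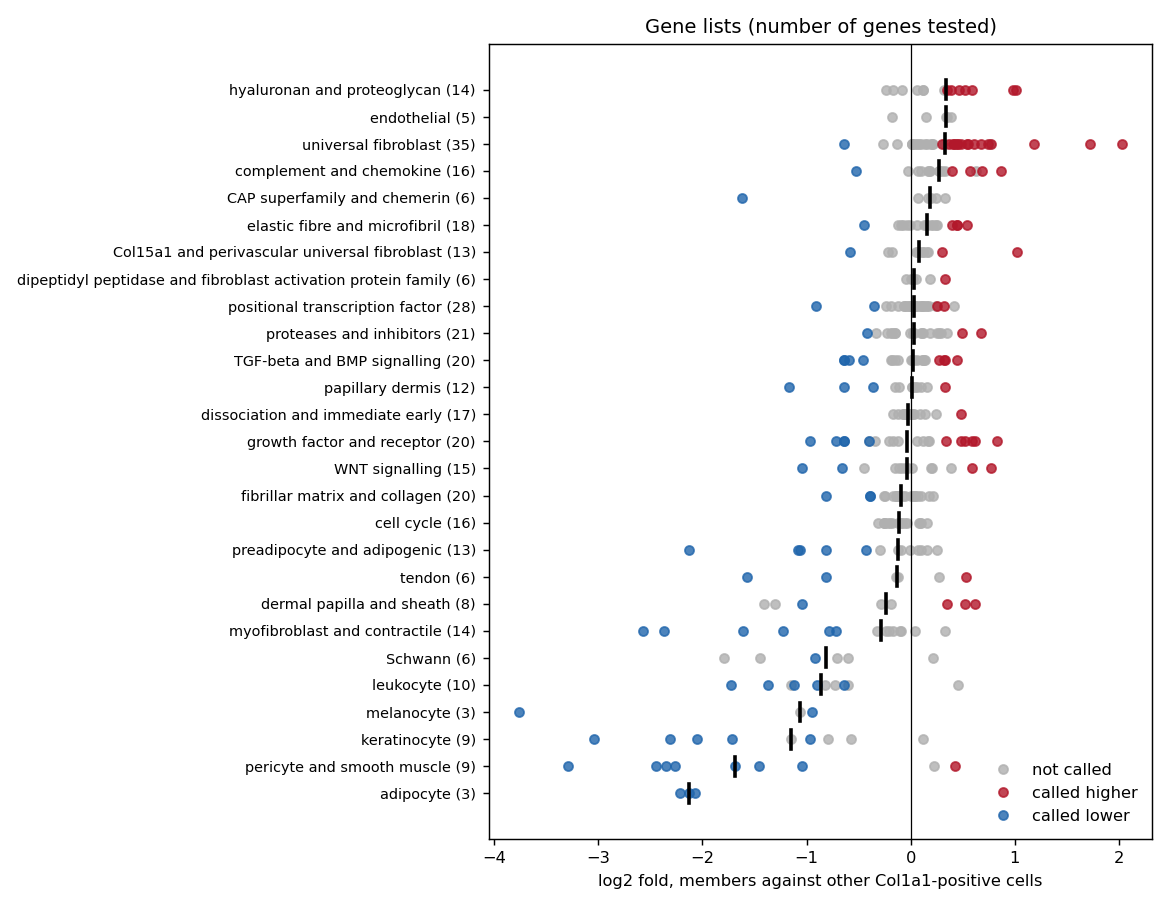
Log2 fold of gated against other Col1a1-positive cells for every tested gene of 27 gene lists with 3 or more genes tested, coloured by whether edgeR called it, with the median as a black bar. The universal and hyaluronan lists lie to the right of 0, and the lists of pericytes, adipocytes, keratinocytes and contractile genes to the left.

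The cytokine gene Il6 stood at 25.7 against 25.2 in tube 1 and at 174 against 80.6 in tube 2 (1.60-fold in the fit, adjusted p = 0.00762). The levels were close to each other in tube 1 and apart in tube 2, and the difference between the tubes was not tested. Timp1, an inhibitor of matrix proteases, stood at 1014 against 768 and 2440 against 1324. With the gate on thinned cells the log2 folds of Il6 and Timp1 were 0.12 and 0.11 and neither was called (adjusted p = 0.615 and 0.269). In the complement and chemokine list 4 of 16 genes were higher (2.28% of all genes), Il6, Il33, Cxcl12 and Cxcl13. Cxcl13 had a log2 fold of 0.05 within a band of like depth (adjusted p = 0.886). C4b was lower at 374 against 492.5 and 279 against 459 (adjusted p = 0.000406).

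Members with UMIs of both gate genes differed in places from those with Pi16 alone. Gated cells with both numbered 843 and 360 (median 3918 and 7172 UMIs), and those with Pi16 alone 3180 and 1005 (3185 and 6128 UMIs). Sema3c stood at 201 with both and 144 with Pi16 alone in tube 1, and at 121 and 71.3 in tube 2. Prg4 stood at 218 and 148 in tube 1 and at 187 and 131 in tube 2. Timp1 was the reverse in tube 2, at 1083 with both and 3025 with Pi16 alone, and Il6 there at 88.0 and 212. The groups with and without Dpp4 differ in depth, and the part of depth in these values was not tested.

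When membership was instead set as at least 1 UMI of each gene (1171 and 503 cells), the universal list had 24 genes higher in place of 16. All other compared cells, 17001 and 4225, then formed the other class, which took in the members with only 1 of the genes. Cells with 1 UMI of each gene, fewer than the gate asks, became members. Coch then had a log2 fold of -0.74 (adjusted p = 0.0429) and Cxcl13 of -0.50 (adjusted p = 0.026), against 0.92 and 0.57 with the gate as given. The direction of Coch and Cxcl13 thus turned with the definition of the gate.

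Among transcription factors of body position 2 of 28 were higher, Tbx15 and Osr1, and 2 lower, against 2.28% and 2.82% of all genes. Tbx15, a factor of limb and trunk mesenchyme, stood at 94.3 against 76.6 and 74.96 against 61.8 (1.25-fold, adjusted p = 0.0105), and Osr2 at 181 against 227 and 175 against 238 (adjusted p = 0.00621, but 0.303 on the hashtag sums). Meox2, a homeobox factor of somite and limb, was lower at 7.87 against 12.99 and 7.29 against 17.0 (adjusted p = 0.000185).

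The bulk libraries give the lineage and the age that the single cells lack. In a bulk library fewer cells of a type and less RNA per cell cannot be told apart. Pi16 was near the limit of the bulk counts, which hold only reads that fall in a single transcript. At E16.5 its level was 0.548 and 0.135 CPM in PNF and 1.24 and 0 CPM in PPF. It was 0, 0.899, 0 and 0.195 CPM in PNF and 0 in both PPF libraries at E18.5. At P1 it was 4.26, 0.380, 0.520 and 0.695 CPM in PNF and 0.677 and 2.46 CPM in PPF. At P30 it was 0 and 1.31 CPM in PNF, and in the 6 PPF libraries it ran from 0.225 to 11.95 CPM with a median of 3.08. In the 6 libraries without a Pi16 count, 3 counts would be 0.283 to 1.02 CPM. The libraries with the most Pi16 were thus of PPF at P30, but the groups overlapped and neither contrast passed (PPF P30 against E16.5 log2 fold 2.68, adjusted p = 0.583, and PPF against PNF over the 4 ages -0.23, adjusted p = 0.916).

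Dpp4 was measured in nearly every bulk library. The E16.5 libraries stood at 25.7 and 39.0 CPM for PNF and at 23.0 and 45.8 CPM for PPF. At E18.5 it was 64.5, 38.7, 73.2 and 96.5 CPM in PNF against 11.98 and 20.8 in PPF, the only age at which the lineages did not overlap. The P1 libraries stood at 43.8, 50.6, 97.3 and 92.0 CPM for PNF and at 58.2 and 126 CPM for PPF. At P30 it was 0 and 190 CPM in PNF, while PPF ran from 43.4 to 212 CPM with a median of 59.3. The library at 0 was PNF P30 A, one of the pair set aside in an alternative as rich in erythroid RNA, and 3 counts there would be 1.02 CPM. Averaged over the ages Dpp4 did not differ past the threshold between PPF and PNF (log2 fold -0.41, adjusted p = 0.878), nor in PPF between P30 and E16.5 (1.40, adjusted p = 0.626).

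None of the 30 tested genes of the universal list was called in either bulk contrast by edgeR, which called 0.675% of 15559 genes between the lineages (0.0836% higher and 0.591% lower in PPF) and 0.726% with age in PPF (0.18% higher and 0.546% lower at P30). At an unadjusted p under 0.05 there were 7 and 4, and DESeq2 called 2 and 5. Some genes of the list were called in fits that left 1 library in PNF P30. Among these was the fit without PNF P30 B, which kept only the erythroid-rich PNF P30 A there. The fit without the pair of erythroid-rich libraries was another. Their counts are not given, since a group of 1 library shows no spread. In libraries simulated with this spread, 0 of 196 genes changed 4-fold with age and 38 of 189 changed 4-fold between lineages were recovered, so a difference of that size would mostly have been missed. The nearest were named after their values were seen. Ly6c1, a GPI-anchored antigen of endothelium and fibroblasts, stood at 87.6 and 70.3 CPM in PPF at E16.5 and at 971 to 10180 CPM with a median of 2520 at P30 (log2 fold 5.85, adjusted p = 0.0656). Ly6a stood at 573 and 359 CPM and at 1567 to 13065 CPM (log2 fold 3.84, adjusted p = 0.217). The P30 libraries lay above those of E16.5 for both genes without overlap, and both PPF libraries of E18.5 were at 0 for both genes, where 3 counts would be 0.437 to 0.449 CPM.

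At E16.5 Thy1 stood at 41.2 and 48.1 CPM in PNF, against 208 and 70.9 in PPF. It stood at 24.4 to 64.2 CPM in PNF and 95.9 and 154 in PPF at E18.5 and at 4.40 to 52.4 CPM in PNF and 348 and 118 in PPF at P1, with no overlap at these ages (log2 fold over 4 ages 1.66, adjusted p = 0.0716). At P30 it overlapped, with PNF at 183 and 44.1 CPM and PPF from 33.9 to 243 CPM. Sema3c stood at 13.7 to 16.0 CPM in PNF and 0 in both PPF libraries at E18.5, and at 14.0 to 34.4 CPM in PNF and 3.89 and 7.61 in PPF at P1 (log2 fold over 4 ages -2.92, adjusted p = 0.0939). Its lineages overlapped at E16.5, with PNF at 12.4 and 13.5 CPM and PPF at 1.24 and 29.0 CPM, and at P30, with PNF at 0 and 16.8 CPM and PPF from 0.927 to 16.0 CPM. The PPF libraries of E18.5 also held 0 counts of Mfap5, Wnt2 and Pi16. Cd55 and Gfpt2 overlapped between the lineages at most ages, with log2 folds of -0.10 and 0.24 over the 4 ages. Genes that were higher in gated cells were thus found on both sides of 0 in the lineage contrast, with none of the universal list called. The average takes in the PPF libraries of E18.5 that held 0 counts. Ly6a had a log2 fold of -1.66 over the 4 ages, with PPF at 0 and PNF at 77.6 to 260 CPM at E18.5. Its PPF libraries lay above PNF at the other ages, at P1 with 673 and 882 against 109 to 321 CPM. The contrast without E18.5 was not tested.

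**Figure D5:**
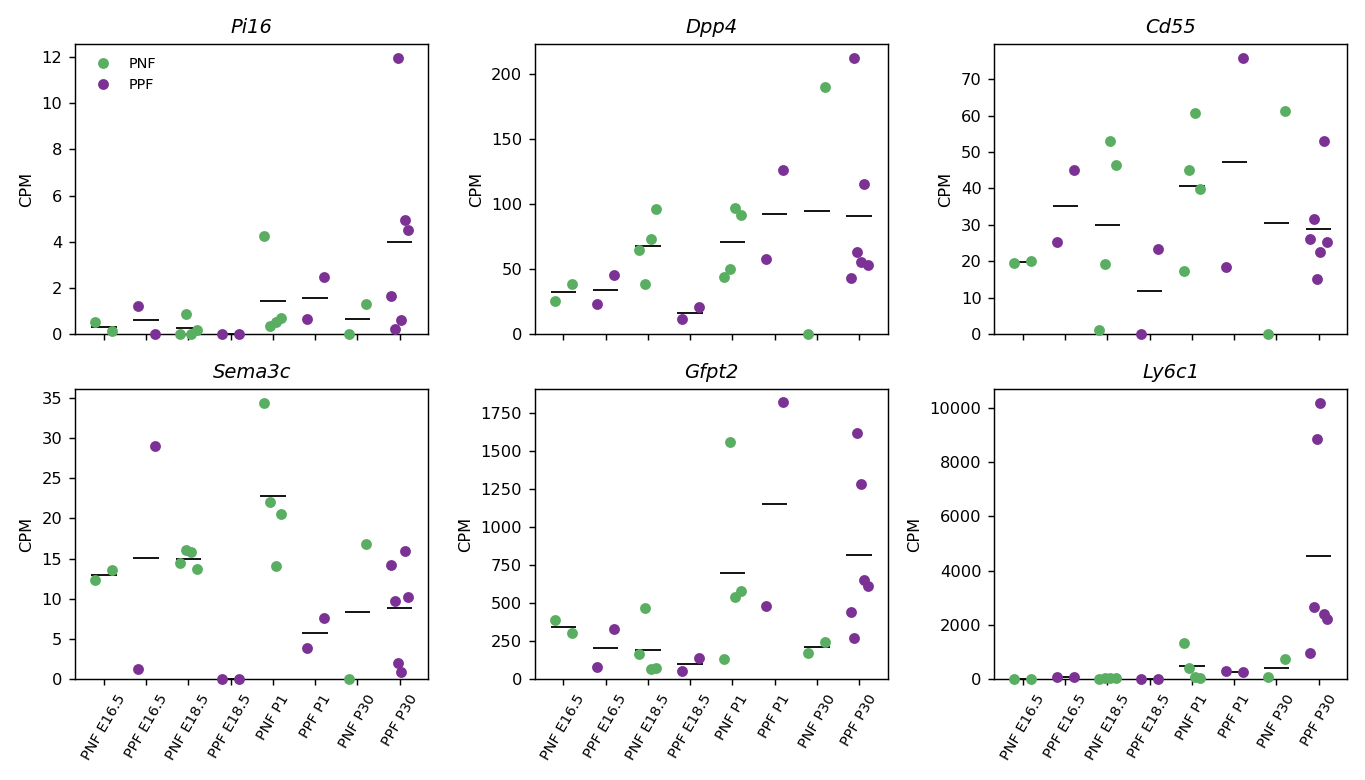
Bulk level in CPM of 6 genes in each of 24 libraries, by lineage and age, with points for libraries and a black line at the group mean. Pi16 reaches at most 11.95 CPM, Ly6c1 lies between 971 and 10180 CPM in the 6 PPF libraries of P30, with 1 PNF library of P1 at 1321 CPM, and Sema3c is at 0 in both PPF libraries of E18.5.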

How the data were processed

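The deposited single-cell values are raw UMI counts per gene and barcode, in 10x matrices written by software 3.1.0 per the file headers. The deposited bulk values are counts per transcript, made by the authors on mm10 per the submitters' processing notes. Those notes also name Seurat 3.2 and 3.1.1. They do not name an aligner for the bulk counts. UMIs of kept barcodes totalled 56203306 in tube 1 and 26295660 in tube 2. No doublet caller was run, and cells with 1 dominant hashtag were tried as an alternative.

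UMIs were summed per tube and class and tested with edgeR 4.0.16 (quasi-likelihood, tube as block, Benjamini-Hochberg adjustment over all tested genes, R 4.3.3). DESeq2 1.42.0 and limma 3.58.1 were alternatives. Bulk transcripts were joined to GENCODE genes, which matched 82946 of 95883 transcripts and left out 5.25% of the counts. They were summed to 24924 genes in libraries of 4264657 to 17190154 counts and tested with edgeR over 8 groups, as PPF against PNF averaged over 4 ages and as PPF P30 against E16.5. CPM are counts per 1000000, scaled by TMM factors. Replicate letters of the bulk libraries were not used as a block in the main fit. Same-letter deviations had a median correlation of 0.01 over 62 pairs, with a range from -0.21 to 0.18. These pairs share libraries and are not independent, so the values cannot show whether the letters pair samples. A fit with the letters as replicate block is given below as an alternative.

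Named genes are up to 12 per direction with the largest fold among called genes of at least 100 UMIs per 1000000 that moved alike in both tubes, and up to 4 per list with the smallest p. Further list genes were named after their values were seen. Members and lists were chosen with earlier results of these data known. On simulated sums the single-cell test found 141 of 198 genes set to change 1.5-fold and 173 of 197 set to change 2-fold.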

Additional observations from a re-analysis of the deposited data

Results flagged for a closer look

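Of 36 groups of bulk values checked for a library far from the others, 2 were marked, where chance marks about 1 in 20. Pi16 stood at 4.26 CPM in library A of PNF P1 and at 0.380 to 0.695 CPM in the other 3 libraries of that group. Ackr3 stood at 287 CPM in library A of PNF E18.5 and at 56.2 to 92.4 CPM in the others, and that library is one of the pair set aside in an alternative as rich in erythroid RNA.

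Barcodes outside the comparison also reached 3 UMIs of Pi16 and Dpp4. Of barcodes that failed the filters on genes or mitochondrial UMIs, 785 of 8938 did so in tube 1 (8.78%, 95% Clopper-Pearson interval 8.20 to 9.39) and 109 of 777 in tube 2 (14.0%, 11.7 to 16.7). Of kept barcodes with a Ptprc UMI, 21 of 115 did so in tube 1 (18.3%, 11.7 to 26.5) and 7 of 50 in tube 2 (14.0%, 5.82 to 26.7).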

How the results depend on the processing

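The 668 genes called between gated and other cells became 136 with DESeq2, 67 against a 1.5-fold threshold, 0 with no replicate block (the tube), 1025 with a gate of 5, 280 with both genes required, 406 in a depth band, 372 at no more than 5% mitochondrial UMIs, 422 in cells with 1 dominant hashtag and 431 with hashtag sums as replicate block. With the gate on thinned cells, an alternative chosen after seeing the data, it was 391. The 16 higher universal genes became 9 with DESeq2, 1 against 1.5-fold and 0 without the block. The 6 lower contractile genes became 0 without the block and 3 without cells with other types' markers, also chosen after seeing the data. The 7 hyaluronan genes became 1 with DESeq2, 1 against 1.5-fold, 0 without the block, 2 with both genes, 2 with the thinned gate, and 4 in each of the depth band, cells with 1000 genes, single-hashtag cells and hashtag sums.

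The gated share was 32.4% and 43.3% with a gate of 2, 11.6% and 17.9% with a gate of 5, 26.7% and 33.0% with 1000 genes, 25.4% and 33.6% with Pdgfra, 23.6% and 27.8% with 1 hashtag, 10.4% and 8.65% after thinning, and 22.9% in tube 1 at no more than 5% mitochondrial UMIs.

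Requiring both genes also moved members with only 1 gene into the other class. In that setting 20 of 94 named genes (those called and Prrx1) changed sign. Their log2 folds were Cilp -0.076, Coch -0.74, Mgp -0.30, Cldn10 0.22, Cxcl13 -0.50, Timp1 -0.33, Fgf10 -0.012, C4b 0.029, Bmp7 0.034, Axin2 0.021, Fbn2 0.074, Tgfbi 0.090, Mfap4 -0.13, Nr4a1 -0.12, Osr2 0.19, Il6 -0.39, Has2 -0.049, Tbx15 -0.036, Kera -0.070 and Penk -0.095. Cfd was 0.038 in Pdgfra-positive cells, S100a8 0.13 in the depth band and Krt15 0.26 with the thinned gate. The causes were not tested.

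In bulk the 105 lineage calls became 844 with DESeq2, 160 with limma voom, 426 without the filter, 28 with the replicate block, 320 without the 2 erythroid-rich libraries, and 2 (without PPF P1 A) to 1480 (without PNF P30 B) on leaving out a library. The 113 age calls became 976, 286, 181, 0 with the replicate block and 411, and 0 (without PPF E16.5 B) to 290 (without PNF P30 A). With limma voom the lineage log2 folds were Pi16 0.33, Dpp4 0.24, Cd55 0.028, Wnt2 -0.11 and Bmp7 0.75, and that of Sema3c with age 0.031. With the replicate block they were Cd55 0.041, Wnt2 -0.073 and Bmp7 0.067 for lineage and Mfap5 -0.29 and Thy1 -0.61 for age. Cd55 with age was 0.026 with DESeq2 and 0.027 with RLE scaling. On leaving out a library the lineage folds ran from -1.60 to 1.16 for Pi16, -0.70 to 2.69 for Dpp4, -1.68 to 2.60 for Cd55, -1.26 to 0.43 for Wnt2, -0.37 to 3.29 for Bmp7, -0.14 to 0.45 for Gfpt2 and -1.94 to 0.87 for Ly6a. The age folds ran from -0.63 to 0.25 for Cd55, -1.68 to 2.88 for Sema3c, -2.90 to 3.98 for Wnt2 and -0.17 to 1.31 for Thy1.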
